A study of Mus musculus with 18 samples.

Results

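The genes described are the creatine kinases and the genes that supply creatine: 7 genes, taken by symbol from the 55450 gene rows of the count table. Ckm and Ckb encode the muscle-type and brain-type cytosolic creatine kinases, Ckmt2 and Ckmt1 the sarcomeric and ubiquitous mitochondrial kinases, Gatm and Gamt the enzymes that make creatine, and Slc6a8 the transporter that takes it up. All 7 had a row, and 6 of them passed the filter on low counts. Ckmt1 did not pass and was not tested.

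Polyadenylated RNA was sequenced from C2C12 cells, a mouse myoblast line whose cells fuse into myotubes in low serum. Myoblasts in serum-rich growth medium and day 3 myotubes, differentiated in medium with horse serum, were taken from 3 lines. Each line and stage has 3 replicates, lettered A, B and C. All lines had been transfected with the pX458 vector, which carries Cas9 and EGFP. The control (label px) was a sorted population that received the vector alone. The other lines (labels 2-4 and 2-7) were each grown from a single cell after editing with a pair of guide RNAs against the proximal promoter region of Meg3, a noncoding RNA gene of the imprinted Dlk1-Dio3 cluster. The labels call the first a Dlk1-Dio3 overexpressor and the second a Dlk1-Dio3 knockout. Since each genotype is 1 clone and the control is a population, genotype and clone cannot be told apart. The labels do not say whether replicates were separate cultures, so p-values measure the spread between these libraries only.

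Library totals ran from 41544358 to 79140702 counts. Counts of Meg3 ran from 5222 to 7763 over the 6 overexpressor libraries and were 0 in the 12 others. Meg3 thus set the overexpressor apart but did not separate control from knockout, whose direction rests on its label. The summed myotube markers were higher in the myotubes than in the myoblasts of each line. The summed myoblast markers, given below, were also higher in the myotubes of each line, against the direction of the stage labels. The summed level of 7 myotube markers (Myog, Myh3, Myh8, Acta1, Tnnt3, Mymk and Ryr1) ran from 246 to 376 CPM (counts scaled to library size, with TMM factors) in control myoblasts, 452 to 737 in overexpressor myoblasts and 9047 to 11554 in knockout-labelled myoblasts. Control myotubes had 13926 to 14364 CPM, overexpressor myotubes 20465 to 22341 and knockout-labelled myotubes 28958 to 34054. Knockout-labelled myoblasts therefore carried myotube transcripts in growth medium. In bulk RNA, fewer cells of a type and less RNA per cell cannot be told apart, and the part of differentiation state in the values below was not tested.

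Creatine kinases move a phosphate group between ATP and creatine. In muscle, the mitochondrial kinases are known to charge creatine where ATP is made, and the cytosolic kinases to recover ATP from phosphocreatine at the myofibrils and calcium pumps. During muscle development the brain-type cytosolic kinase is known to give way to the muscle type. Creatine is made by GATM, which forms guanidinoacetate from arginine and glycine, and GAMT, which methylates it. Muscle is known to take up most of its creatine through SLC6A8.

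The promoters of the 3 kinases that passed the filter are shown because the results below turn on how these isoforms differ in level and in their change on differentiation. The sequences are the 250 bases upstream of the RefSeq start (GRCm38.p6), 5′ to 3′ on the strand of the gene, with capitals marking E-boxes (CANNTG, the sites bound by MyoD and myogenin), a MEF2 consensus and the TATA box TATAAA. They cover chr7:19410844-19411093 (plus strand, inside the annotated span of Ckm), chr12:111672339-111672588 (minus strand) and chr13:91876886-91877135 (minus strand).
Ckm: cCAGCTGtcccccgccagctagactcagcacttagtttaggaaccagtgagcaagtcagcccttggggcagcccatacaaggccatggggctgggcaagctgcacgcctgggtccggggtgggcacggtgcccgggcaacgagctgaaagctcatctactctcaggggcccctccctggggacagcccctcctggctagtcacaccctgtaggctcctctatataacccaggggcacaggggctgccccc
Ckb: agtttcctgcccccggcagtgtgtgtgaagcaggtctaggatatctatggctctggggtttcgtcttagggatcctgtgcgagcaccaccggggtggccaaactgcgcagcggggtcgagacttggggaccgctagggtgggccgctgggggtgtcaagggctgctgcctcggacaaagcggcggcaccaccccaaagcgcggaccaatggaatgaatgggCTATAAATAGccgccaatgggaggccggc
Ckmt2: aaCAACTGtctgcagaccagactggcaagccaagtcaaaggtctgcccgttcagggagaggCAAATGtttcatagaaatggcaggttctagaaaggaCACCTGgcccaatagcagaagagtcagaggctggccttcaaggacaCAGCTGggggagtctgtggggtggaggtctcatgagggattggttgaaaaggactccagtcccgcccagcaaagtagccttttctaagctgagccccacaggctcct

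Both strands were searched, except that TATAAA was sought on the gene strand only. The Ckm window held 1 E-box, CAGCTG, at bases -249 to -244 from the start. The Ckmt2 window held 4 E-boxes, at -248 to -243, -189 to -184, -153 to -148 and -107 to -102. The Ckb window held no E-box. It held TATAAA on the gene strand at -28 to -23, inside a match to the MEF2 consensus at -29 to -20, so the capitals there mark both. Of 32851 promoter windows of this length, 66.2% held an E-box of any kind, 13% held CAGCTG, 2.92% a MEF2 match and 7.59% TATAAA on the gene strand. RefSeq promoter sequences were matched for 6 of the 7 genes. A match describes these letters only.

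Ckm is the textbook marker of this switch. It lies on chromosome 7 (19404776 to 19422841, plus strand, GRCm38). Its level was 5.19, 7.65 and 5.28 CPM in control myoblasts (replicates A, B and C), 11.2, 6.3 and 12.9 in overexpressor myoblasts, and 260, 321 and 267 in knockout-labelled myoblasts. Control myotubes had 209, 241 and 212 CPM, overexpressor myotubes 1612, 1428 and 1341, and knockout-labelled myotubes 1868, 2059 and 2537. The knockout-labelled myoblasts, still in growth medium, lay above every control myotube library. Overexpressor and control myoblasts overlapped, and overexpressor and knockout-labelled myotubes did not.

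Differences in single genes were tested with edgeR's quasi-likelihood test, with p-values adjusted over all tested genes (Benjamini-Hochberg) and a threshold of 0.05. Ckm rose on differentiation by 5.19 log2 units in control (SE 0.24, adjusted p = 4.83e-11), by 7.17 in the overexpressor (SE 0.26, adjusted p = 2.42e-12) and by 2.93 in the knockout-labelled line (SE 0.21, adjusted p = 1.27e-08). The overexpressor thus began near the control level and ended 6.62-fold above it, while the knockout-labelled line began 46.7-fold above control and ended 9.76-fold above it. Between the myotubes of the edited lines the difference was -0.56 (overexpressor over knockout-labelled, SE 0.20, adjusted p = 0.0223). That call was lost without overexpressor replicate B (adjusted p = 0.0577) or C (0.0839), without knockout-labelled replicate C (0.108), and with no filter on low counts (0.0722).

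Ckb, the brain-type kinase, lies on chromosome 12 (111669361 to 111672338, minus strand). It did not fall in any line on differentiation. Its level was 27.8, 30.9 and 25.8 CPM in control myoblasts and 38.5, 48.6 and 38.3 in control myotubes. In the overexpressor it went from 39.6, 30.2 and 41.6 CPM in myoblasts to 267, 230 and 220 in myotubes, the highest of the 6 groups. In the knockout-labelled line it was 116, 136 and 123 CPM in myoblasts and 136, 154 and 177 in myotubes. Control and overexpressor myoblasts overlapped, as did overexpressor myoblasts and control myotubes. The other neighbouring groups in the order of levels did not, though the nearest libraries of the knockout-labelled stages both round to 136 CPM.

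The rise of Ckb on differentiation was 0.57 log2 units in control (SE 0.13, adjusted p = 0.00123) and 2.69 in the overexpressor (SE 0.14, adjusted p = 1.75e-11). In the knockout-labelled line it was 0.32 (SE 0.13, adjusted p = 0.0390). That last call was lost with library totals (0.15, adjusted p = 0.304), with a replicate block (adjusted p = 0.0551), with no filter (0.0949), and without myoblast replicate A (0.132) or C (0.0892) or myotube replicate B (0.071) or C (0.183). Against control, Ckb was 4.43-fold higher in knockout-labelled myoblasts (adjusted p = 6.35e-10), 5.73-fold higher in overexpressor myotubes (adjusted p = 6.26e-11) and 3.73-fold higher in knockout-labelled myotubes (adjusted p = 1.59e-09). Overexpressor myotubes exceeded knockout-labelled myotubes in Ckb by 0.62 (SE 0.13, adjusted p = 5.85e-04), the opposite direction to Ckm.

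A processed pseudogene, Gm12892, matches the Ckb transcript at 96.78% identity over 1149 bases, so reads of one could be counted for the other and the Ckb counts are uncertain. In every library Gm12892 held between 24.1% and 28.6% as many counts as Ckb. With both rows summed, no Ckb call changed. Neuronal markers were examined because Ckb is also abundant in brain. Summed over Tubb3, Map2, Syp, Snap25 and Rbfox3, they were at 192 to 216 CPM in overexpressor, 43.6 to 52.7 in control and 3.66 to 4.09 in knockout-labelled myoblasts. In myotubes their sum was 32.9 to 38.6 CPM in the overexpressor, against 8.13 to 9.09 for control and 3.18 to 3.74 for the knockout-labelled line. Among myotubes the overexpressor was thus highest in this sum and in Ckb, and among myoblasts it was highest in the sum but not in Ckb. The part of these markers in the Ckb result was not tested. Snap25 was at 3 counts or fewer in every library, and Rbfox3 in all groups but knockout-labelled myotubes. Map2 was at 3 counts or fewer in every knockout-labelled library, at either stage. The sum in knockout-labelled myoblasts thus rests on 2 markers with over 3 counts in any library. In every other group it rests on 3.

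**Figure D1:**
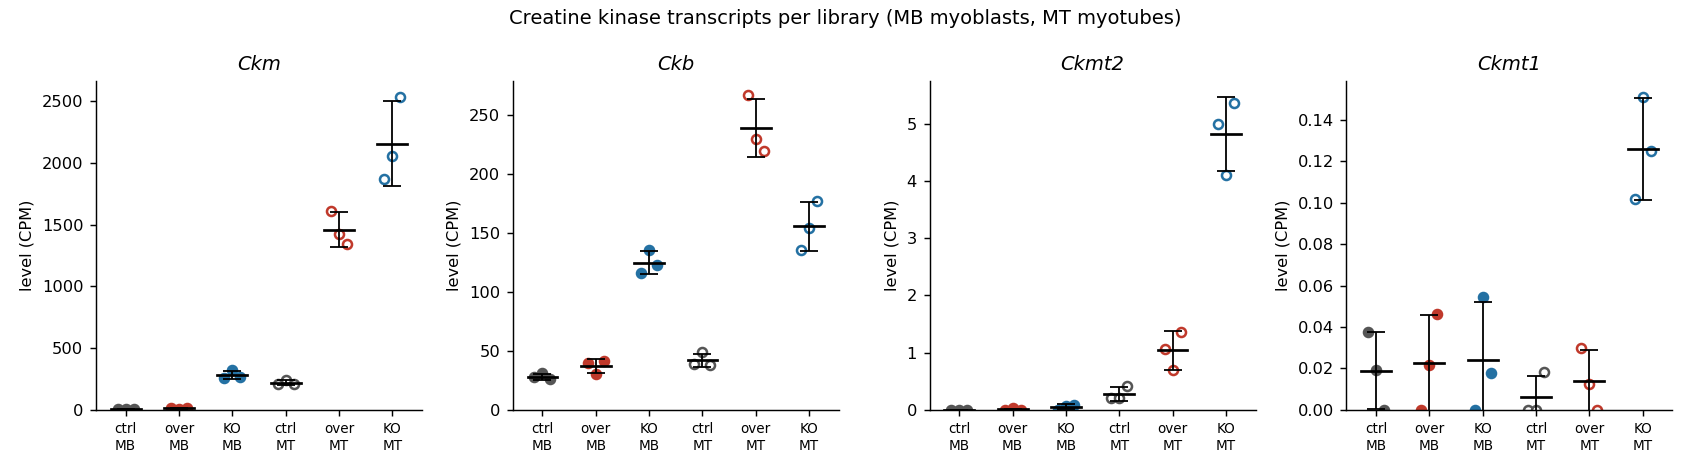
Level of each creatine kinase transcript in CPM (vertical axis, linear, from 0, a different range per gene) in each library. Filled circles are myoblasts (MB), open circles myotubes (MT), grey control (ctrl), red overexpressor (over) and blue the knockout-labelled line (KO); bars are means ± SD (n = 3). Ckm is highest in knockout-labelled myotubes (2155 CPM) and Ckb in overexpressor myotubes (239 CPM), while Ckmt2 and Ckmt1 stay below 6 CPM.

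Levels of different genes were compared per kb of exon, over the union of each gene's exons. Ckb exceeded Ckm in control myoblasts, at 9.74 ± 0.89 against 2.07 ± 0.48 CPM per kb, and in overexpressor myoblasts, at 12.8 ± 2.11 against 3.48 ± 1.17 (SD, n = 3). In the other 4 groups Ckm exceeded Ckb, by 97.1 ± 11.3 to 43.1 ± 3.56 CPM per kb in knockout-labelled myoblasts and 75.8 ± 6.05 to 14.4 ± 2.04 in control myotubes (SD, n = 3).

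The share of Ckm in the cytosolic pair (Ckm and Ckb, per kb) does not depend on library size. Control myoblasts had 17.4% ± 2.11, overexpressor myoblasts 20.9% ± 3.3 and knockout-labelled myoblasts 69.2% ± 0.891 (SD, n = 3). Control myotubes reached 84% ± 0.813, overexpressor myotubes 85.8% ± 0.168 and knockout-labelled myotubes 93.2% ± 0.235 (SD, n = 3). Control and overexpressor myotubes thus differed by 1.8 percentage points in this share. Their summed creatine kinase level differed much more, at 90.4 ± 8.04 against 585 ± 55.9 CPM per kb (SD, n = 3). Knockout-labelled myoblasts held 140 ± 14.8 CPM per kb and knockout-labelled myotubes 797 ± 126, against 11.8 ± 1.34 in control and 16.3 ± 3.28 in overexpressor myoblasts (SD, n = 3).

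Of the 9 pairs of groups compared in this share, 8 did not overlap and each reached p = 0.1, the smallest value that an exact two-sided permutation test of 3 against 3 libraries can give (adjusted over the 9 pairs, p = 0.113). Control and overexpressor myoblasts overlapped (exact p = 0.2). No pair could therefore pass 0.05. From myoblasts to myotubes the log2 ratio of Ckm to Ckb increased by 4.65 in control, by 4.53 in overexpressor cells and by 2.61 in knockout-labelled cells. The shares depend on the transcript length assumed. With the longest coding transcript of each gene they were 10.2% in control, 12.5% in overexpressor and 54.8% in knockout-labelled myoblasts, and 74% to 88.1% in myotubes.

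**Figure D2:**
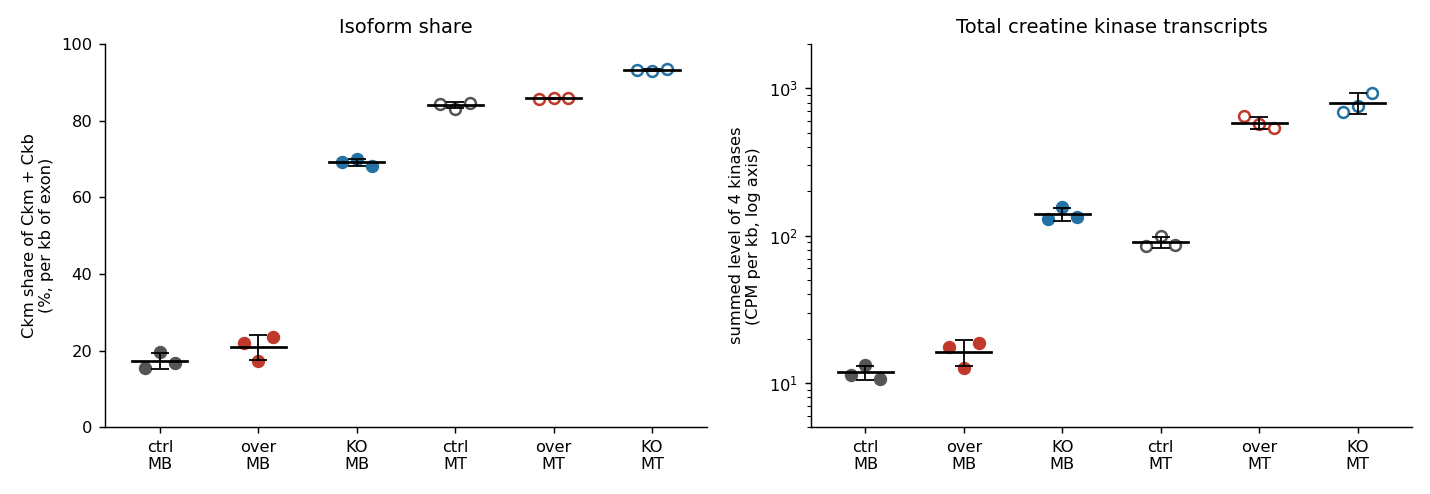
Left, share of Ckm among Ckm and Ckb transcripts per kb of exon (percent, axis 0 to 100). Right, summed level of the 4 creatine kinases in CPM per kb on a log axis. Circles are libraries, bars means ± SD (n = 3), with MB for myoblasts, MT for myotubes and KO for the knockout-labelled line. Control and overexpressor myotubes have nearly equal shares (84% and 85.8%) but summed levels of 90.4 and 585 CPM per kb.

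The mitochondrial kinases were scarce. Ckmt2, the sarcomeric form (chromosome 13, 91853387 to 91876885, minus strand), was at 0 counts in each control myoblast library, at most 1 in overexpressor and at most 5 in knockout-labelled myoblasts. Control myotubes had 0.208, 0.206 and 0.415 CPM, overexpressor myotubes 1.07, 0.688 and 1.36, and knockout-labelled myotubes 4.99, 4.1 and 5.37. The 3 myotube groups did not overlap, and they rose in that order.

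Where the lower group was at a floor of 3 counts per library, the higher group's mean CPM was divided by the highest floor CPM. The spread of the higher group is not part of this fold. By this measure, mean Ckmt2 rose on differentiation at least 4.14-fold in control (adjusted p = 7.42e-05). The rise in the overexpressor was at least 15-fold (adjusted p = 3.87e-07). In the knockout-labelled line its rise was 6.35 in log2 (SE 0.45, adjusted p = 5.00e-09). Between lines, it was 3.67-fold higher in overexpressor (adjusted p = 4.20e-04) and 17-fold higher in knockout-labelled (adjusted p = 4.36e-08) than in control myotubes. Knockout-labelled myotubes exceeded overexpressor myotubes by 2.21 in log2 (SE 0.30, adjusted p = 1.15e-05). In myoblasts, the comparison of the knockout-labelled line with control passed the threshold (adjusted p = 0.0252) on these few counts. It was lost without any 1 control library (adjusted p 0.052 to 0.0593) and without knockout-labelled replicate B (0.0605) or C (0.0817), and no fold is given.

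Even in knockout-labelled myotubes Ckmt2 made up 0.411% ± 0.0654 of creatine kinase transcripts per kb, against 0.209% ± 0.0996 in control and 0.121% ± 0.0454 in overexpressor myotubes (SD, n = 3). Control myotubes had a log2 ratio of Ckm to Ckmt2 of 8.75 ± 0.63, overexpressor myotubes 9.54 ± 0.54 and knockout-labelled myotubes 7.83 ± 0.22 (SD, n = 3). The knockout-labelled line did not overlap the other lines in this ratio (exact permutation p = 0.1, adjusted over 3 pairs 0.15). The other pair overlapped (exact p = 0.3).

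Ckmt1, the ubiquitous form (chromosome 2, 121357714 to 121363737, plus strand), had 6, 9 and 6 counts in the knockout-labelled myotube libraries and at most 3 in any other library. The mean of these libraries is at least 1.84-fold above control myotubes, by the same measure and on these few counts. No ratio of Ckmt2 to Ckmt1 is given, since Ckmt1 was at the floor in the other 5 groups.

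Gatm catalyses the first step of creatine synthesis (chromosome 2, 122594467 to 122611303, minus strand). It was high in both edited lines before differentiation. Its level was 46.1, 41.2 and 49.4 CPM in control myoblasts, 224, 238 and 212 in overexpressor myoblasts, and 189, 207 and 195 in knockout-labelled myoblasts. Control myotubes had 92.9, 84.6 and 95.7 CPM, overexpressor myotubes 193, 236 and 258, and knockout-labelled myotubes 186, 166 and 134. Every library of the edited lines, at either stage, lay above every control library.

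Against control, Gatm was 4.93-fold higher in overexpressor (adjusted p = 3.10e-11) and 4.32-fold higher in knockout-labelled myoblasts (adjusted p = 6.28e-11). In myotubes the differences were 2.51-fold (adjusted p = 1.52e-08) and 1.78-fold (adjusted p = 4.38e-06). The edited lines did not pass the threshold between them as myoblasts (log2 difference 0.19, SE 0.11, adjusted p = 0.165), and passed with only those groups in the fit (adjusted p = 0.0213). On differentiation Gatm rose by 0.999 log2 units in control (SE 0.12, adjusted p = 5.23e-07). In the overexpressor the change was 0.03 (SE 0.11, adjusted p = 0.852). In the knockout-labelled line it fell by 0.28 (SE 0.11, adjusted p = 0.0363), a call lost with DESeq2 size factors (-0.16, adjusted p = 0.185), in DESeq2's Wald test (adjusted p = 0.238), with the replicate block (0.055), with no filter (0.0837), with only those groups (0.0907), and without myoblast replicate B (0.11) or C (0.0647) or myotube replicate B (0.0609) or C (0.211).

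Gamt, which completes synthesis (chromosome 10, 80258151 to 80261012, minus strand), moved in opposite directions on differentiation. It fell in control, from 37.4, 40.4 and 40.3 CPM in myoblasts to 20.6, 23.2 and 18 in myotubes. It rose in the overexpressor, from 50, 38.3 and 48.3 to 118, 97.3 and 94.4 CPM, and in the knockout-labelled line, from 60.7, 63.8 and 57.7 to 99.4, 107 and 125 CPM. Myoblasts and myotubes did not overlap within any line.

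The log2 change of Gamt was -0.93 in control (SE 0.12, adjusted p = 1.27e-06), 1.18 in the overexpressor (SE 0.11, adjusted p = 4.51e-08) and 0.86 in the knockout-labelled line (SE 0.11, adjusted p = 3.26e-06). In myotubes Gamt was therefore 5-fold higher than control in the overexpressor (log2 2.32, adjusted p = 1.08e-11) and 5.35-fold higher in the knockout-labelled line (adjusted p = 5.56e-12). The edited lines differed there by -0.10 (overexpressor over knockout-labelled, SE 0.11, adjusted p = 0.467). In myoblasts the knockout-labelled line was 1.54-fold above control (adjusted p = 1.41e-04). The overexpressor did not pass (log2 0.21, SE 0.11, adjusted p = 0.163), though it did without its replicate B (adjusted p = 0.0311).

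Per kb of exon, Gamt exceeded Gatm in control myoblasts, at 27.3 ± 1.17 against 15.2 ± 1.39 CPM per kb (SD, n = 3). In control myotubes the order was turned, at 14.3 ± 1.8 against 30.3 ± 1.91 CPM per kb (SD, n = 3). In the edited lines Gatm exceeded Gamt as myoblasts, at 74.9 ± 4.32 against 31.5 ± 4.38 in the overexpressor and 65.5 ± 3.1 against 42.1 ± 2.11 in the knockout-labelled line. In knockout-labelled myotubes Gamt was the higher, at 76.5 ± 8.89 against 54 ± 8.86 CPM per kb (SD, n = 3). In overexpressor myotubes Gatm was at 76.3 ± 11.1 and Gamt at 71.4 ± 8.79 CPM per kb (SD, n = 3), which is within the spread of the libraries.

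Slc6a8, the creatine transporter (chromosome X, 73673150 to 73682502, plus strand), was lower in both kinds of edited myotubes than in control myotubes. Control myotubes held 215, 222 and 200 CPM, overexpressor myotubes 110, 120 and 101, and knockout-labelled myotubes 120, 119 and 124. Control myoblasts had 89.1, 99.9 and 98.3 CPM, overexpressor myoblasts 113, 101 and 111, and knockout-labelled myoblasts 75, 80 and 78.5. Control myotubes stood above all other libraries.

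Slc6a8 rose on differentiation by 1.15 log2 units in control (SE 0.07, adjusted p = 8.07e-11) and by 0.64 in the knockout-labelled line (SE 0.07, adjusted p = 3.51e-07). In the overexpressor the change was 0.03 (SE 0.07, adjusted p = 0.756). Against control it was 1.93-fold lower in overexpressor myotubes (adjusted p = 1.67e-09) and 1.75-fold lower in knockout-labelled myotubes (adjusted p = 1.13e-08). In myoblasts it fell by 0.30 in the knockout-labelled line against control (SE 0.07, adjusted p = 0.00144), while the overexpressor did not pass (0.18, SE 0.07, adjusted p = 0.0519) except without its replicate B (adjusted p = 0.0230).

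**Figure D3:**
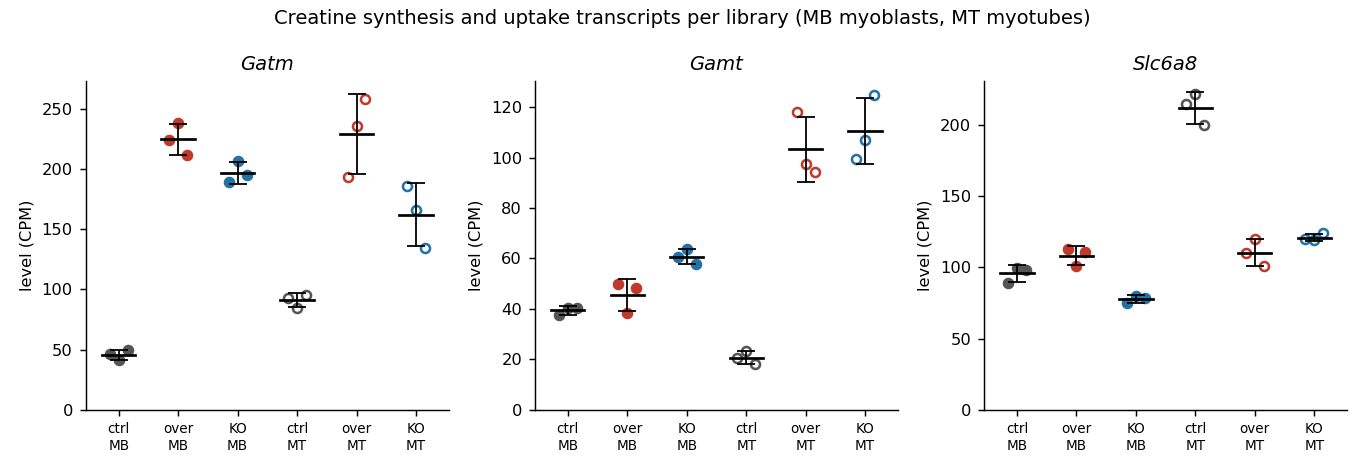
Level of Gatm, Gamt and Slc6a8 in CPM (vertical axis, linear, from 0) in each library. Filled circles are myoblasts (MB), open circles myotubes (MT), grey control (ctrl), red overexpressor (over) and blue the knockout-labelled line (KO); bars are means ± SD (n = 3). Gatm and Gamt are above control in both kinds of edited myotubes, and Slc6a8 is below it (213 CPM in control, 110 and 121 in the edited lines).

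The members were counted against the share of all 17912 tested genes that passed in the same comparison. Ckmt2 passed the filter through its myotube counts. Against control myoblasts, 3 of the 6 tested members passed in the overexpressor, all higher (40.4% of all genes passed, 20.7% higher and 19.7% lower). They were Ckm (0.74, adjusted p = 0.0163), Ckb (0.40, adjusted p = 0.0237) and Gatm, and leaving out either of replicates A and C, of the control or of the overexpressor, left Gatm as the sole member called. Without overexpressor replicate B, 5 passed. The Ckm call was also lost with only those groups in the fit (adjusted p = 0.0767) and the Ckb call with no filter (0.0613). In knockout-labelled myoblasts all 6 passed, 5 higher and Slc6a8 lower (53% of all genes passed, 26.4% higher and 26.6% lower). Ckmt2 was among them on at most 5 counts per library, a call lost without any 1 control library. In overexpressor myotubes all 6 passed, 5 higher and Slc6a8 lower (57.1% of all genes passed, 26.2% higher and 30.9% lower). The same count held for knockout-labelled myotubes (68% of all genes passed, 31% higher and 37% lower). Ckmt2 is among the 5 higher in both. It had 55 to 98 counts in overexpressor and 245 to 292 in knockout-labelled myotubes, against 9 to 23 in control myotubes. The filter favoured these Ckmt2 calls, so they add no support.

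Between the edited lines, 4 of 6 passed in myoblasts (52.6% of all genes passed, 25.7% higher and 26.9% lower). Ckm, Ckb and Gamt were lower and Slc6a8 was higher in the overexpressor. In myotubes 4 of 6 passed (59.7% of all genes passed, 30.6% higher and 29.1% lower), with Ckb and Gatm higher and Ckm and Ckmt2 lower in the overexpressor. On differentiation, 6 of 6 passed in control, 5 higher and Gamt lower (62.8% of all genes passed, 33.9% higher and 28.8% lower). In the overexpressor 4 of 6 passed, all higher (62.8% of all genes passed, 29.8% higher and 33% lower), and in the knockout-labelled line 6 of 6, 5 higher and Gatm lower (65.4% of all genes passed, 29.8% higher and 35.6% lower). Ckmt2 is among the members higher on differentiation in each line. It entered the tests through its myotube counts, so the filter favoured that call and it adds no support. These shares show that passing the threshold was common among all genes. The median log2 change of the tested members in myotubes against control was 2.1 in the overexpressor and 2.16 in the knockout-labelled line, beside -0.04 and -0.07 for all genes. These medians include Ckmt2. The members were chosen with earlier results of these data known, so the medians are a description only.

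Whether lines differed in their change from myoblast to myotube was tested with an interaction contrast. Between overexpressor and control, 5 of 6 members passed (39% of all genes passed, 16.6% higher and 22.3% lower). The response of Ckm was larger in the overexpressor by 1.98 in log2 (SE 0.30, adjusted p = 8.24e-05), that of Ckb by 2.12 (SE 0.19, adjusted p = 9.32e-08) and that of Gamt by 2.11 (SE 0.16, adjusted p = 8.97e-09). The responses of Gatm (-0.97, SE 0.16, adjusted p = 8.71e-05) and Slc6a8 (-1.12, SE 0.10, adjusted p = 5.02e-08) were smaller.

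Between the knockout-labelled line and control, 4 of 6 passed (50.1% of all genes passed, 20.2% higher and 29.9% lower). The response was larger for Gamt (1.79, SE 0.16, adjusted p = 6.13e-08) and smaller for Ckm (-2.26, SE 0.29, adjusted p = 1.53e-05), Gatm (-1.28, SE 0.16, adjusted p = 3.83e-06) and Slc6a8 (-0.51, SE 0.10, adjusted p = 3.49e-04). The difference for Ckb did not pass (-0.25, SE 0.18, adjusted p = 0.277). Both sets of differences use the same control libraries.

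Between the edited lines, which share no library, 3 of 6 passed (46.7% of all genes passed, 24.3% higher and 22.4% lower). The response in the overexpressor was larger for Ckm by 4.24 (SE 0.29, adjusted p = 3.44e-08) and for Ckb by 2.37 (SE 0.18, adjusted p = 3.27e-08), and smaller for Slc6a8 (-0.61, SE 0.10, adjusted p = 7.82e-05). Gamt (0.32, SE 0.16, adjusted p = 0.110) and Gatm (0.31, SE 0.16, adjusted p = 0.122) did not pass. No fold is given for Ckmt2 in these tests, since 2 of the 3 myoblast groups were at the floor. Its adjusted p-values were 0.695, 0.527 and 0.749 in the order above.

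**Figure D4:**
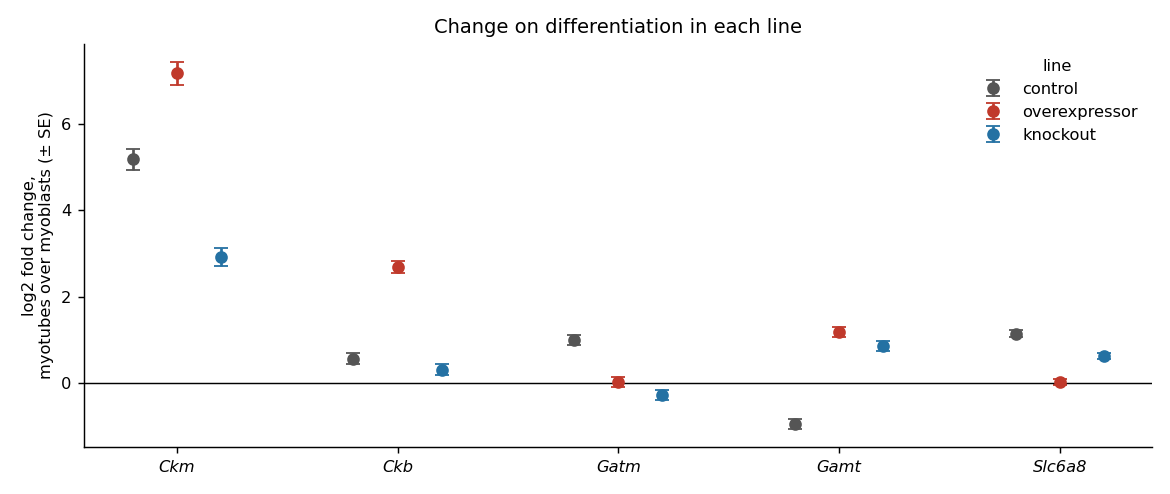
Log2 fold change from myoblasts to myotubes (vertical axis, points, with SE as bars) for Ckm, Ckb, Gatm, Gamt and Slc6a8 in each line: grey control, red overexpressor, blue the knockout-labelled line. Gamt lies below 0 in control (-0.93) and above 0 in both edited lines (1.18 and 0.86), while Slc6a8 is near 0 in the overexpressor (0.03) and at 1.15 in control.

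Other genes of creatine and phosphate buffering were taken as 4 lists of 31 genes, of which 30 were tested. Their counts stand beside the share of all tested genes called against control, which was 57.1% for overexpressor myotubes (26.2% higher, 30.9% lower) and 68% for knockout-labelled myotubes (31% higher, 37% lower). Of 9 tested genes for arginine handling, methyl supply and creatine export, 2 were higher and 4 lower in overexpressor than in control myotubes, and 2 were higher and 2 lower in knockout-labelled myotubes (list medians -0.19 and -0.05). The share called was 66.7% and 44.4%, the second below that of all genes. Slc7a2, a transporter of arginine and other cationic amino acids, was at 287 ± 36.5 CPM in control myotubes, 26.9 ± 7.68 in the overexpressor and 22.9 ± 4.95 in the knockout-labelled line (SD, n = 3). Against control, log2 changed by -3.42 (SE 0.20, adjusted p = 6.19e-10) in the first and by -3.64 (SE 0.20, adjusted p = 2.96e-10) in the second. Ass1, which acts in arginine synthesis, fell by 1.68 in overexpressor myotubes (adjusted p = 3.30e-10) and did not pass in knockout-labelled myotubes (0.05, adjusted p = 0.707). Slc7a1, another cationic amino acid transporter, fell in both, by 0.96 (adjusted p = 1.11e-10) and 1.43 (adjusted p = 4.53e-13).

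Of the 6 mitochondrial exchange partners, which move ATP, ADP and phosphate across the mitochondrial membranes, 2 were higher and 1 lower in overexpressor myotubes than in control, and 5 were higher and 1 lower in knockout-labelled myotubes (medians -0.06 and 0.54). The share called was 50% in the first, below that of all genes, and 100% in the second. Slc25a3, the phosphate carrier, rose from 521 ± 43.1 CPM in control to 1094 ± 66.5 in knockout-labelled myotubes (SD, n = 3, adjusted p = 3.29e-10). Vdac3, an outer membrane channel, was the gene that fell in both, by 0.81 (SE 0.07, adjusted p = 9.52e-09) and 0.95 (SE 0.07, adjusted p = 9.15e-10).

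Of 10 adenylate kinase and AMP-handling genes, 5 were higher and 2 lower in overexpressor myotubes, and 7 were higher and 2 lower in knockout-labelled myotubes (medians 0.26 and 0.36). The share called was 70% and 90%. Ampd1, the muscle AMP deaminase, rose from 0.67 ± 0.166 CPM in control myotubes to 15.3 ± 1.45 in overexpressor and 22.7 ± 2.72 in knockout-labelled myotubes (SD, n = 3). These are log2 changes of 4.50 (SE 0.22, adjusted p = 2.89e-11) and 5.07 (SE 0.22, adjusted p = 6.48e-12). Prkag3, the muscle gamma subunit of AMP-activated kinase, rose by 1.59 (adjusted p = 9.43e-11) and 1.77 (adjusted p = 1.99e-11).

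All 5 sarcomere anchors and calcium pumps (Myom1, Myom2, Myom3, Atp2a1 and Atp2a2) were higher than control in both kinds of edited myotubes (medians 0.91 and 0.93). All 5 were also higher in knockout-labelled myoblasts (median 4.68), where 53% of all genes were called and 26.4% were higher. In overexpressor myoblasts 3 were higher, where 40.4% of all genes were called and 20.7% were higher. Myom1, an M-band protein, was at 88.9 ± 8.19 CPM in knockout-labelled against 2.51 ± 0.691 in control myoblasts (SD, n = 3, adjusted p = 4.66e-15). Atp2a1, the fast-muscle calcium pump, rose by 1.26 in overexpressor (SE 0.17, adjusted p = 1.19e-05) and by 1.78 in knockout-labelled myotubes (SE 0.18, adjusted p = 2.47e-07).

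The genes most like each member were found by Pearson's r of log2 CPM over the 18 libraries, which fall into 6 groups, so r mostly reflects group means and is given as a description. Nearest to Ckm were Dnajb5 (r = 0.998), Tbc1d8 (0.996) and Pgam2 (0.996). Nearest to Ckb were Dapk2 (0.989), Pmpca (0.978) and Gtf3c6 (0.965), and to Ckmt2 Atp2a2 (0.977), Psmc3 (0.974) and Coq10a (0.971). For Gamt they were Gdf11 (0.969), Rapsn (0.956) and Usp13 (0.951), and for Gatm Lama2 (0.976), Etl4 (0.964) and Popdc3 (0.960). Slc6a8 lay nearest to Tnfaip2 (0.979), Pi4k2a (0.976) and Dhrs7 (0.971). Among the members themselves, Ckm and Ckb had r = 0.89, Ckm and Ckmt2 0.88, and Ckb and Gamt 0.83. Slc6a8 had r = -0.50 with Gamt.

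Markers of other cell types were summed in the same way. The summed level of 5 fibroblast markers (Pdgfra, Thy1, Dpt, Lum and Dcn) was 31.4 to 44.2 CPM over all myoblast libraries, and in myotubes 154 to 169 in control, 15.7 to 18.8 in the overexpressor and 61.9 to 74.1 in the knockout-labelled line. Of the fibroblast markers, Thy1 was at the floor in every group but control myotubes. Lum was at the floor in control and overexpressor myoblasts and in overexpressor myotubes. Of 5 adipocyte markers (Adipoq, Plin1, Fabp4, Cidec and Lpl), Adipoq and Plin1 were at the floor in every group. In control myotubes Fabp4 and Cidec were at the floor too, which left Lpl. The adipocyte sum was 37.2 to 45.8 CPM in control myotubes, 1.96 to 3.29 in overexpressor and 7.07 to 10.2 in knockout-labelled myotubes. It was 7.23 to 29.6 over all myoblast libraries. Control myotubes were therefore highest in the fibroblast sum, in the adipocyte sum (there almost only Lpl) and also in Slc6a8. The part of these markers in that result was not tested. Of 5 osteoblast markers, Ibsp was at the floor in every group and Bglap in every group but knockout-labelled myotubes. Alpl was at the floor in both edited lines at both stages, and not in control. Their sum ran from 95.6 to 103 CPM in control myoblasts, from 40 to 57.7 in the myoblasts of the edited lines, from 71.5 to 74.4 in control myotubes, and from 11.4 to 28.2 in the myotubes of the edited lines. The 5 myoblast markers (Myod1, Myf5, Pax7, Des and Cdh15) were above the floor in every group. Their sum was 1397 to 1551 CPM in control, 2759 to 3335 in overexpressor and 3440 to 3915 in knockout-labelled myoblasts. Control myotubes had 2585 to 2709 CPM, overexpressor myotubes 5601 to 6792 and knockout-labelled myotubes 7851 to 10435. The sum of the myoblast markers was thus highest in the myotubes of the edited lines, where Ckm was also highest. A sum follows its most abundant markers, and single markers were not compared. The part of these markers in the Ckm result was not tested.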

How the data were processed

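Poly(A) RNA of 18 C2C12 libraries, 3 in each of 6 groups, was grouped by library title, and every column of the count table was matched to its library by that title. The authors deposited raw counts per Ensembl gene. Per the submitters' processing notes, STAR 2.7.9a, featureCounts (Subread 2.0.3), FastQC 0.11.7, DESeq2 1.32.0 and the build mm10 were used. The annotation release and the strand setting are not given in the sources used here, so genes on opposite strands (A930016O22Rik opposite Ckm, at most 0.594% of its counts) cannot be separated. The deposited variance-stabilised values were not used.

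Counts were tested with edgeR 4.0.16 (limma 3.58.1, R 4.3.3): TMM factors, the filterByExpr filter, which left 17912 genes, and the robust quasi-likelihood test. All libraries entered 1 fit with a coefficient per group (12 residual degrees of freedom) and 12 contrasts, with Benjamini-Hochberg adjustment over all tested genes and a threshold of 0.05. The fit was tested on simulated data. SE is the log2 fold change divided by the square root of F. CPM values use library sizes with TMM factors. A count of 0 allows up to 3 counts, or 0.0375 to 0.0693 CPM, for counting error only. Lengths, positions and symbols (55190 of 55450 IDs matched) are from GENCODE M21 (GRCm38, the same assembly as mm10), and promoters from RefSeq (GRCm38.p6). Transcript copies were sought at 90% identity or more over at least 100 bases.

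Replicate pairs differed beyond sampling noise (chi-square per degree of freedom 4.46 to 108), so none was merged. Alternatives were DESeq2 size factors, library totals, DESeq2 1.42.0 (Wald test), no filter, only the groups compared, the replicate letter as a block, and each library left out. For the ratios they were other lengths. Summing Ckb with Gm12892 and the shortest coding transcript were added after seeing the data. The members and lists were chosen with earlier results of these data known. From each list at most 2 called genes with the largest change were named per comparison, and for each member the 3 genes with the highest r among tested genes of at least 10 CPM in their highest group and with an ordinary symbol.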

Additional observations from a re-analysis of the deposited data

Results flagged for a closer look

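The change on differentiation differed between lines, by the interaction test, for 5 members. In the order below, 39%, 50.1% and 46.7% of all 17912 tested genes also passed, so passing was common. In the overexpressor against control, the differences in log2 fold change were 1.98 for Ckm, 2.12 for Ckb, 2.11 for Gamt, -0.97 for Gatm and -1.12 for Slc6a8. In the knockout-labelled line against control they were -2.26 for Ckm, 1.79 for Gamt, -1.28 for Gatm and -0.51 for Slc6a8. In the overexpressor against the knockout-labelled line they were 4.24 for Ckm, 2.37 for Ckb and -0.61 for Slc6a8. For Gamt the sign itself differed: all 3 control myotube libraries lay below all control myoblast libraries, and all myotube libraries of each edited line lay above its myoblast libraries.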

How the results depend on the processing

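Of 980 recomputed values of single members, 929 kept their direction and their side of the threshold, 35 lost the call, 9 gained one and 7 changed sign. The 7 were all values that had not passed and that stayed unpassed. With library totals, the log2 difference of Gamt between overexpressor and knockout-labelled myotubes became 0.0044, and the change on differentiation in the overexpressor became -0.03 for Gatm and -0.027 for Slc6a8. With 1 library left out, the change of Gatm there ran from -0.022 (without myotube replicate C) to 0.14 and was -0.013 without myoblast replicate C. That of Slc6a8 ran from -0.035 (without myotube replicate B) to 0.13 and was -0.02 without myoblast replicate B. The number of members called between overexpressor and control myoblasts, 3 with all libraries, ran from 1 to 5 when 1 library was left out. The other counts of members and all 174 recomputed counts of genes called stayed within 1.5 times. All 210 recomputed differences between groups in the share of Ckm or in a log2 ratio kept their sign, and no such test could pass the threshold. The median over all genes shifted by up to -0.24 on the log2 scale under library totals (differentiation in control), and under DESeq2 size factors by up to 0.15 (response of the knockout-labelled line minus control), so changes of about that size depend on the scaling. The shares themselves moved with the length used. With the longest coding transcripts the share of Ckm was 10.2% in place of 17.4% for control myoblasts and 12.5% in place of 20.9% for overexpressor myoblasts, both moves of over 1.5 times. With the shortest coding transcripts the share of Ckm was 20.2% in control myoblasts and 94.3% in knockout-labelled myotubes. The cause of these changes was not tested.

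The replicate letter was used as a block in 1 alternative. It ended the calls of Ckb (0.32, adjusted p = 0.0551) and Gatm (-0.28, adjusted p = 0.055) on differentiation in the knockout-labelled line and no other call of a member. Same-letter libraries of different groups deviated together (r over 0.1) in 3 of 45 pairs, with r from -0.36 to 0.26. Pairs of different letters were not compared, so these values do not settle whether the letters pair the libraries. The ratio of Ckmt2 to Ckmt1 was not run, because Ckmt1 was at the floor.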
